A study of Mus musculus with 2 samples.

Results

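Inflammasome genes were followed in the colon of mice that lack the prostaglandin E2 receptor EP4 in the intestinal epithelium. The members were 10 genes chosen by name: the sensors Nlrp3, Nlrp6, Nlrc4 and Aim2, the adaptor Pycard, the inflammatory caspases Casp1, Casp4 and Casp12, and the cytokines Il1b and Il18. They were 10 of the 22909 genes that could be named on the arrays, measured by 13 of the 56593 gene probes. RNA of whole colon was taken from Villin-Cre controls and from mice of the genotype Villin-Cre; EP4flox/flox, called EP4 cKO, both of the C57BL/6 strain and 8 weeks of age by the methods of the study. Both genotypes carried the Villin-Cre transgene, which drives Cre recombinase in the intestinal epithelium, so other cells of the colon keep Ptger4, the gene of EP4. RNA combined from 3 pools of colon was hybridized to 1 array per genotype. With 1 array on each side the spread between mice is unknown, so no test was made and the values hold for these arrays alone.

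Inflammasomes are protein complexes of the cytosol that assemble when a sensor meets a microbial product or a sign of cell damage. The sensor recruits the adaptor ASC, the product of Pycard, and through it caspase-1, which cuts the precursors of interleukin (IL)-1beta and IL-18 and the pore-forming protein gasdermin D. In a parallel route the product of mouse Casp4, known as caspase-11, binds bacterial lipopolysaccharide and cuts gasdermin D itself. In the gut, IL-18 is made largely by epithelial cells and is linked to barrier function, whereas IL-1beta comes mainly from myeloid cells. The arrays measure RNA and carry no information on cleavage of the proteins.

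The signals, background-subtracted by the scanner software, were scaled to a trimmed mean of 2500 on each array and are called normalized signals. Of the gene probes, 45.4% were well above background on the Villin-Cre-labelled array and 51.6% on the EP4 cKO-labelled array. Ptger4, the targeted gene, had a brighter probe with normalized signals of 6227 and 5661, a log2 ratio of -0.14 (EP4 cKO over Villin-Cre) that turned to 0.02 with scaling to the 75th percentile and 0.85 with the E1A control spots. Its dimmer probe had 393 and 592, a log2 ratio of 0.59. Ptger4 was thus not lower past 2-fold in whole colon, whether its probes lie in the deleted part was not tested, and the directions given here follow the array labels. The study also measured EP4 in isolated epithelium and cytokine genes in colon by qRT-PCR, which bear on the labels and are not analysed here. Its list of qRT-PCR primers includes Il18, and the array values of Il18 were not compared with that measure. All 8 epithelial markers were well above background on both arrays, with a median log2 ratio of 0.21 and 1, Krt20, past 2-fold (1.80). Of 6 fibroblast markers, 5 had a value and all of these were lower past 2-fold on the EP4 cKO-labelled array, with a summed signal of 12957 against 304. Among them, the log2 ratio of Dcn was -5.77 and that of Col1a2 was -5.03. In whole tissue, fewer cells of a type and less RNA per cell cannot be told apart.

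Of the 10 members, 3 were higher past 2-fold on the EP4 cKO-labelled array (Casp4, Casp12 and Il1b), 1 was lower (Il18), 5 lay within 2-fold and 1, Nlrp3, had no value. Over all 14669 genes with a value, 713 (4.86%) were higher past 2-fold and 1154 (7.87%) were lower. These totals depended on the scaling: they were 937 and 906 with the 75th percentile, 605 and 391 with normexp and quantile normalization, 1117 and 692 with loess, 901 and 943 with a trimmed mean over all spots, and 5235 and 346 with the E1A control spots. The median log2 ratio of the 9 members with a value was 0.53, against -0.10 over all genes. Over the 7 members that were well above background on both arrays it was 0.32, with 5 ratios above 0 and 2 below, and 1 of them was higher and 1 lower past 2-fold, against 4.03% and 6.23% of the 12816 genes measured on both arrays. A probe well above background on 1 array only gives a bound, written "at least". For it, the dim side was set to the lowest signal among probes well above background, or to its own signal where that was higher; this floor was 125 on the control array and 57.8 on that of EP4 cKO. A probe well above background on neither array, called near background here, has no ratio. Errors written with ± are those the scanner software gave for a spot, and for the members measured on both arrays they came to 0.20 to 0.21 on the log2 scale of the ratio. They cover 1 hybridization and not the mice.

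**Figure D1:**
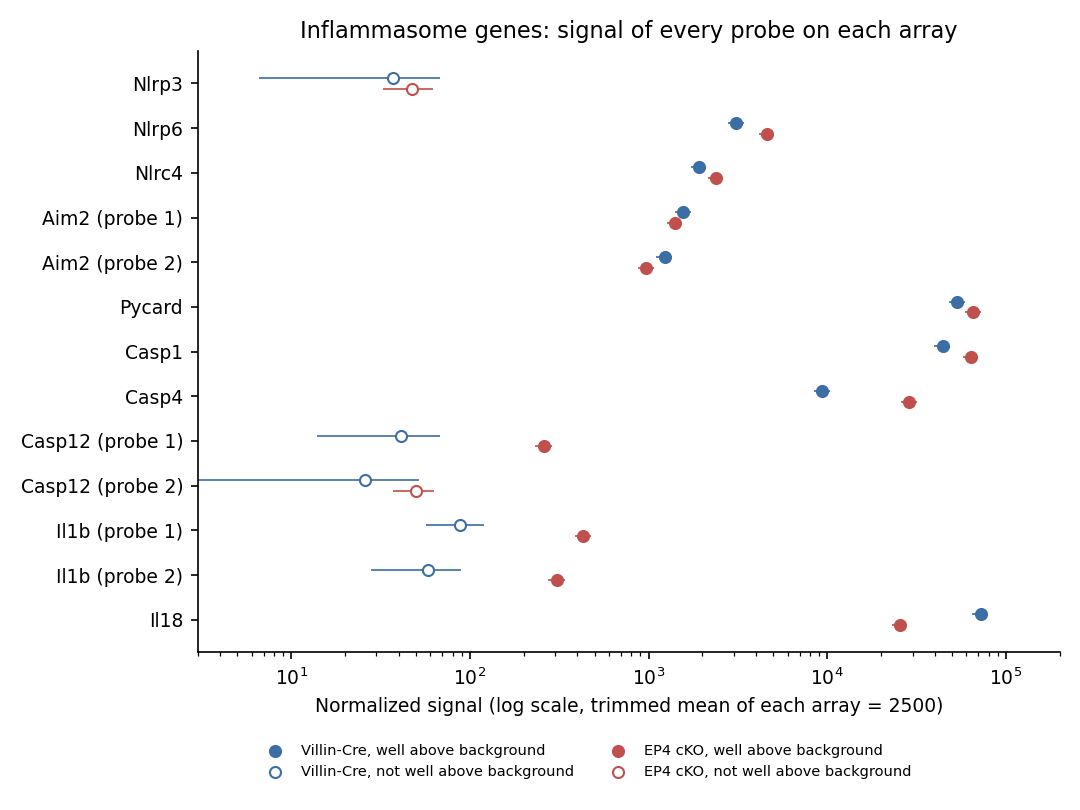
Normalized signal (log axis) of each of the 13 probes of the inflammasome genes on the Villin-Cre (blue) and EP4 cKO (red) arrays. Filled points were well above background, open points were not, and bars are the scanner error of a spot, those reaching past the left edge being cut there. Casp4 is to the right and Il18 to the left on the EP4 cKO array, and both Il1b probes and 1 Casp12 probe are filled on that array only.

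Of the inflammatory caspase genes, Casp4 and Casp12 were higher past 2-fold on the EP4 cKO-labelled array and Casp1 lay within 2-fold. Casp4 had a normalized signal of 9358 ± 936 on the Villin-Cre-labelled array and 28787 ± 2879 on the EP4 cKO-labelled array. This was a 3.08-fold higher level and a log2 ratio of 1.62, the 308th highest among the 14669 genes with bounds taken at their limit. Casp1, the enzyme shared by the canonical inflammasomes, had 44179 ± 4418 and 63806 ± 6381, a log2 ratio of 0.53 that lay within 2-fold. Casp1 was thus bright on both arrays and 1.44-fold higher on the EP4 cKO-labelled array. Casp12 belongs to the same caspase subfamily and its role is less settled. Its brighter probe had 40.9 ± 27.0 on the Villin-Cre-labelled array, not well above background, and 260 ± 28.7 on the EP4 cKO-labelled array. The level was at least 2.08-fold higher, a log2 ratio of at least 1.05, with a log2 ratio of 2.67 if its own dim signal is used. Its other probe, with 26.0 ± 26.1 and 50.1 ± 12.9, stayed near background on both arrays, so the higher level of Casp12 rests on 1 probe just past the 2-fold threshold.

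Casp1, Casp4 and Casp12 follow each other on chromosome 9 among the protein-coding genes of the RefSeq annotation. Of the 3 genes on either side of the cluster, Msantd4 had a log2 ratio of -0.01, Dync2h1 had -1.17, Pdgfd was well above background on the EP4 cKO-labelled array only with no bound above 1, and Gria4, Kbtbd3 and Ddi1 stayed near background on both arrays. None of these neighbours was higher past 2-fold. To show where the caspase genes start, and the same for Il18, the 250 bases before the RefSeq start are given from GRCm38.p6, 5′ to 3′ on the strand of the gene, with matches to the motifs searched in capitals.
Casp1, chr9:5298267-5298516, + strand: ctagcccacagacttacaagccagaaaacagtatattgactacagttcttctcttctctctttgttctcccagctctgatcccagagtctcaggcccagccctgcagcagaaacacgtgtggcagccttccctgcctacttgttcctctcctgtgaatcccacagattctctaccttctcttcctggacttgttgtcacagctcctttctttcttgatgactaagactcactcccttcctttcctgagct
Casp4, chr9:5308599-5308848, + strand: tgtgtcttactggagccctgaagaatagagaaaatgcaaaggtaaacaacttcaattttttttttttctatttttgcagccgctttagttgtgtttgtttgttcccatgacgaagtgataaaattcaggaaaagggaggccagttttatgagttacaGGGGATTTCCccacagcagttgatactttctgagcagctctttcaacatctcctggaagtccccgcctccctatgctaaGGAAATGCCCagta
Casp12, chr9:5345226-5345475, + strand: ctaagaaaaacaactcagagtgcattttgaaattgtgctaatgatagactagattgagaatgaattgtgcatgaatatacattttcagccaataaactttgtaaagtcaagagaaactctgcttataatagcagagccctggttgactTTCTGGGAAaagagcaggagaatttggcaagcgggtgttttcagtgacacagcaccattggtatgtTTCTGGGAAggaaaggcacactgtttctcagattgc
Il18, chr9:50554450-50554699, + strand: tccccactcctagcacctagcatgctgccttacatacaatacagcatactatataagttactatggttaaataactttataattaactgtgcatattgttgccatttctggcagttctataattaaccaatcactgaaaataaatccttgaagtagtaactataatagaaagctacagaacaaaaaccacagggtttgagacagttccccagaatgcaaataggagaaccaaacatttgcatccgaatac

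Windows of this kind were read for all 10 members (12 windows) and for 32851 RefSeq starts in all, and each motif was searched on both strands. The GAS motif TTCNNNGAA (gamma-activated site) was in 7.02% of all windows and, among the members, in that of Casp12. There it was found 2 times with the same letters, TTCTGGGAA, at bases 102 to 94 and 36 to 28 before the start. The motif reads the same on both strands, so each place was counted once. An NF-kappaB motif (GGG and TTTCC with 2 bases between) was in 1.41% of all windows and, among the members, in those of Casp4. It lay at bases 93 to 84 before the start on the strand of the gene and at bases 14 to 5 on the opposite strand. Another, overlapping window of Casp4 held the same matches. The core of the interferon-stimulated response element (GAAA and GAAA with 2 bases between) was in 2.98% of all windows and in 0 of the 12 windows of the members. A match describes the letters only, and binding was not measured.

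The sensors lay within 2-fold or could not be measured. Nlrp6, a sensor of the intestinal epithelium linked to mucus secretion and the microbiota, had the largest ratio among the sensors with one, with 3088 ± 310 on the Villin-Cre-labelled array and 4605 ± 461 on the EP4 cKO-labelled array. Its level was 1.49-fold higher, a log2 ratio of 0.58. Nlrc4, which assembles after NAIP proteins bind flagellin or parts of bacterial secretion systems, had 1914 ± 193 and 2384 ± 239, a log2 ratio of 0.32. Aim2, the sensor of cytosolic DNA, was slightly dimmer on the EP4 cKO-labelled array by both probes. Its brighter probe had 1560 ± 159 and 1401 ± 141, a log2 ratio of -0.16 that was below the error of the spots. Its dimmer probe had 1228 ± 126 and 973 ± 98.1, a log2 ratio of -0.34. The sign of Aim2 depended on the scaling: the log2 ratio of the brighter probe was 0.00 with the 75th percentile, 0.01 with loess and 0.84 with the E1A control spots. Nlrp3, a sensor of ion efflux and membrane damage found mostly in myeloid cells, had 37.3 ± 30.8 and 47.3 ± 14.6. It stayed near background on both arrays, so no ratio is given, and a difference was not detectable at this signal.

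Pycard, the adaptor that joins these sensors to caspase-1, was bright on both arrays. Its normalized signal was 53499.5 ± 5350 on the Villin-Cre-labelled array and 65615.5 ± 6562 on the EP4 cKO-labelled array. The level was 1.23-fold higher, a log2 ratio of 0.29 that stayed within 2-fold.

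**Figure D2:**
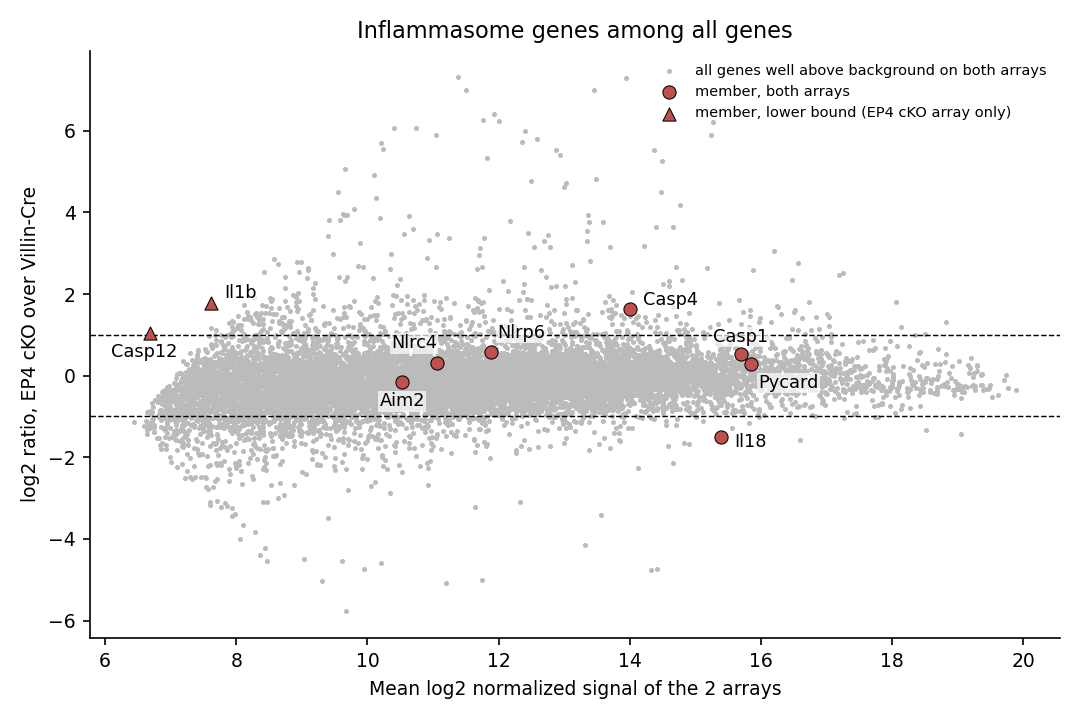
The log2 ratio of EP4 cKO over Villin-Cre (vertical axis) against the mean log2 normalized signal of both arrays (horizontal axis) for genes well above background on both arrays (grey), with members on both arrays as red circles and members with a lower bound as red triangles. Dashed lines mark 2-fold; Casp4 lies above the upper line at 1.62, the bounds of Il1b and Casp12 at 1.78 and 1.05, and Il18 below the lower line at -1.50.

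The cytokine genes went in opposite directions. Il18, the epithelial cytokine, had a normalized signal of 72176 ± 7218 on the Villin-Cre-labelled array, against 25559 ± 2556 on the EP4 cKO-labelled array. This was 2.82-fold lower, a log2 ratio of -1.50 and the 591st lowest among the 14669 genes. Of the epithelial markers, 7 of 8 lay within 2-fold, with log2 ratios from -0.25 (Cdx2) and -0.10 (Cdh1) to 0.52 (Vil1) and 0.56 (Epcam), and Krt20 was 3.48-fold higher. Their summed signal was 1.34-fold higher, and 1.13-fold higher without Krt20. The protein-coding gene next to Il18 on chromosome 9, Bco2, a carotenoid-cleaving enzyme, had 2785 against 568 and was 4.91-fold lower. The other neighbours were not lower past 2-fold: Plet1, the third gene on that side, had a log2 ratio of 4.92, and Pts (-0.17), Sdhd (0.12) and Timm8b (-0.13) lay within 2-fold, while Tex12 stayed near background on both arrays.

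Il1b was seen on the EP4 cKO-labelled array only, by both of its probes. The brighter probe had 88.4 ± 31.7 on the Villin-Cre-labelled array, not well above background, and 431 ± 45.3 on the EP4 cKO-labelled array, at least 3.44-fold higher. The other probe had 58.4 ± 30.5 and 308 ± 33.6, at least 2.46-fold higher. Both probes thus showed the same direction, from a control signal near background. The study had listed Il1b among genes picked from these same arrays, so that list is not independent evidence of its direction.

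Markers of the cells known to make IL-1beta were uneven. Of 8 macrophage and monocyte markers, 5 had a value and 1 was higher past 2-fold, Mrc1 by a log2 ratio of at least 2.11. Cd14 had 0.88 and Csf1r had -0.79, and the signals of Adgre1, Fcgr1 and Lyz2 were near background on both arrays. Their summed signal was 63279 on the Villin-Cre-labelled array and 87979 on the EP4 cKO-labelled array, of which Itgam (log2 ratio 0.48) made up 78.0% on the former, and without Itgam it was 13932 and 19382. Of the 7 neutrophil markers measured, 5 had a value and 2 were higher past 2-fold, S100a8 (at least 2.83-fold) and S100a9 (2.39-fold), whereas Csf3r had a log2 ratio of -0.38 and Cxcr2 and Mpo stayed near background on both arrays. The summed signal of these markers was 109286 against 84949, of which Csf3r alone made up 97.4% on the Villin-Cre-labelled array, and without Csf3r it was 2834 against 3321. T cell markers had 1 of 7 higher past 2-fold (Cd3g, 1.28), Cd2 at 0.91, Cd3d at -0.79 and summed signals of 13169 and 13830. B and plasma cell markers had 0 of 3 past 2-fold (Cd79b at least 0.31, Jchain 0.21) and summed signals of 407 and 510. Smooth muscle markers had 1 of 5 lower past 2-fold (Cnn1, -2.73), Actg2 at 0.72, Acta2 at 0.62, a median of 0.38 and summed signals of 30148 and 45499.5. Of this list, Myh11 stayed near background on both arrays, with 99.5 and 38.0. Des, with 30.7 and 108, was well above background on the EP4 cKO-labelled array only and entered with a bound of 0. The part of any of these cells in the values of Il1b, Il18 or the caspases was not tested.

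The other genes of the pathway, 89 in 8 lists, had 71 with a value, of which 13 were higher past 2-fold, 3 were lower and the median log2 ratio was 0.23, against 4.86% higher and 7.87% lower over all genes. Of the 62 that were well above background on both arrays, 10 were higher and 2 lower, with a median of 0.22. In the list of inflammasome activators and brakes, 5 of 11 genes with a value were higher, 0 were lower and the median was 0.95, while over the 9 measured on both arrays 3 were higher and the median was 0.42. The guanylate-binding protein genes of this list encode interferon-inducible GTPases that attack pathogen membranes and aid the caspase-11 and AIM2 routes. Gbp2 had 720 on the Villin-Cre-labelled array and 38141 on the EP4 cKO-labelled array, 53.0-fold higher. Gbp3 had 165 and 8505, 51.5-fold higher. Gbp5, which also promotes NLRP3 assembly, was at least 6.40-fold higher, and Gm12250, the gene of the interferon-inducible GTPase IRGB10, was at least 22.3-fold higher, or 6.74-fold with the mean of its probes. Normexp with quantile normalization gave lower folds for several of these genes, with Gbp3 24.6-fold, Gbp5 3.83-fold, Gm12250 10.3-fold, Nlrc5 14.1-fold and Il18bp 12.3-fold higher. Trim30a, known as a brake on NLRP3, was 3.91-fold higher with 680 and 2660. Nek7, the NLRP3 partner, had a log2 ratio of -0.13 and Txnip had -0.24.

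Among priming receptors and factors, 14 of 14 had a value, 2 were higher and 0 lower past 2-fold, and the median was 0.35. Irf1, an interferon-inducible transcription factor and 1 of these 2, had 29301 and 74994, 2.56-fold higher. The lipopolysaccharide receptor genes Tlr4 (0.79) and Cd14 (0.88) and the NF-kappaB genes Nfkb1 (-0.03) and Rela (-0.08) lay within 2-fold. Of 11 other sensor and NLR genes with a value, 2 were higher and 0 lower, with a median of 0.37, and over the 10 measured on both arrays 1 was higher and the median was 0.29. Nlrp1a, a sensor, had 16771 and 34644, 2.07-fold higher by its brightest probe, but its probes disagreed and their mean gave a log2 ratio of -0.47. Nlrc5, known chiefly as the activator of MHC class I genes rather than as an inflammasome sensor, had 95.2, not well above background, and 4021, at least 32.1-fold higher, or 5.66-fold with the mean of its probes. Naip1 (0.37), Naip2 (0.39), Naip5 (-0.13) and Naip6 (0.20), which encode the receptors that feed NLRC4, lay within 2-fold, and as close copies they may share hybridization.

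Downstream of the caspases, 3 of 9 genes among the gasdermins and Ninj1 were higher, 1 was lower and the median was 0.82. Gsdmd, the gene of gasdermin D and the shared substrate of caspase-1 and caspase-11, had 18237 and 39543, 2.17-fold higher. Gsdmc2 had 35389 and 97146, 2.75-fold higher, and Gsdmc had 73699 and 149414, 2.03-fold higher; these genes have near-identical copies whose signals may not be separate. Gsdma was 2.05-fold lower with 702 and 342, but lay within 2-fold with the 75th percentile (log2 ratio -0.88), normexp (-0.64), loess (-0.79), the trimmed mean over all spots (-0.91) and the E1A control spots (-0.05). With the mean of a gene's probes, Gsdma was 3.39-fold lower (log2 ratio -1.76). In that setting Gsdmd had a log2 ratio of 0.98, within 2-fold. Ninj1, needed for the final rupture of the membrane, had a log2 ratio of -0.14. The other caspases, which serve mainly in apoptosis, had 0 of 7 past 2-fold in either direction and a median of -0.09.

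On the cytokine side, the gene of an inhibitor was higher. Il18bp, which encodes the secreted protein that neutralizes IL-18, had 247 on the Villin-Cre-labelled array and 5051 on the EP4 cKO-labelled array, 20.5-fold higher. The arrays thus differed in opposite directions for Il18 and for its inhibitor, with log2 ratios of -1.50 and 4.36. Il18bp was the only gene past 2-fold among the 13 receptor and signaling genes with a value, whose median was 0.03. Il1r1 had a log2 ratio of -0.76 and Myd88, the shared adaptor of IL-1 and IL-18 receptors, had -0.15, while the IL-18 receptor genes Il18r1 and Il18rap stayed near background on both arrays. Of the other IL-1 family cytokines, 4 of 7 had a value, 0 were higher, 2 were lower and the median was -1.17; of the 2 measured on both arrays, 1 was lower. Il33, an alarmin of stromal and epithelial cells, had 608 and 120, 5.07-fold lower, and Il36a, an epithelial cytokine listed under its older symbol Il1f6, had 568 and 13.5, at least 9.82-fold lower. The bound of Il36a depended on the floor and was 4.53-fold with 1 floor shared by both arrays. It depended on the normalization too, with 5.28-fold for loess and 4.94-fold for the E1A control spots. Normexp gave 2.79-fold for Il36a and 2.15-fold lower for Il33. Il33 and the fibroblast markers were lower on the same array, and the part of the latter was not tested. Il1rn, the gene of the IL-1 receptor antagonist, had a log2 ratio of 0.44. Of 9 genes that IL-1 or IL-18 are known to induce, 2 had a value and 0 were past 2-fold: Ifng, the classical target of IL-18, had 149 and 177, a log2 ratio of 0.25, and Cxcl1 had at least 0.62. The other 7 genes, Il6, Il17a, Il22, Cxcl2, Csf2, Csf3 and Ptgs2, stayed near background on both arrays.

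**Figure D3:**
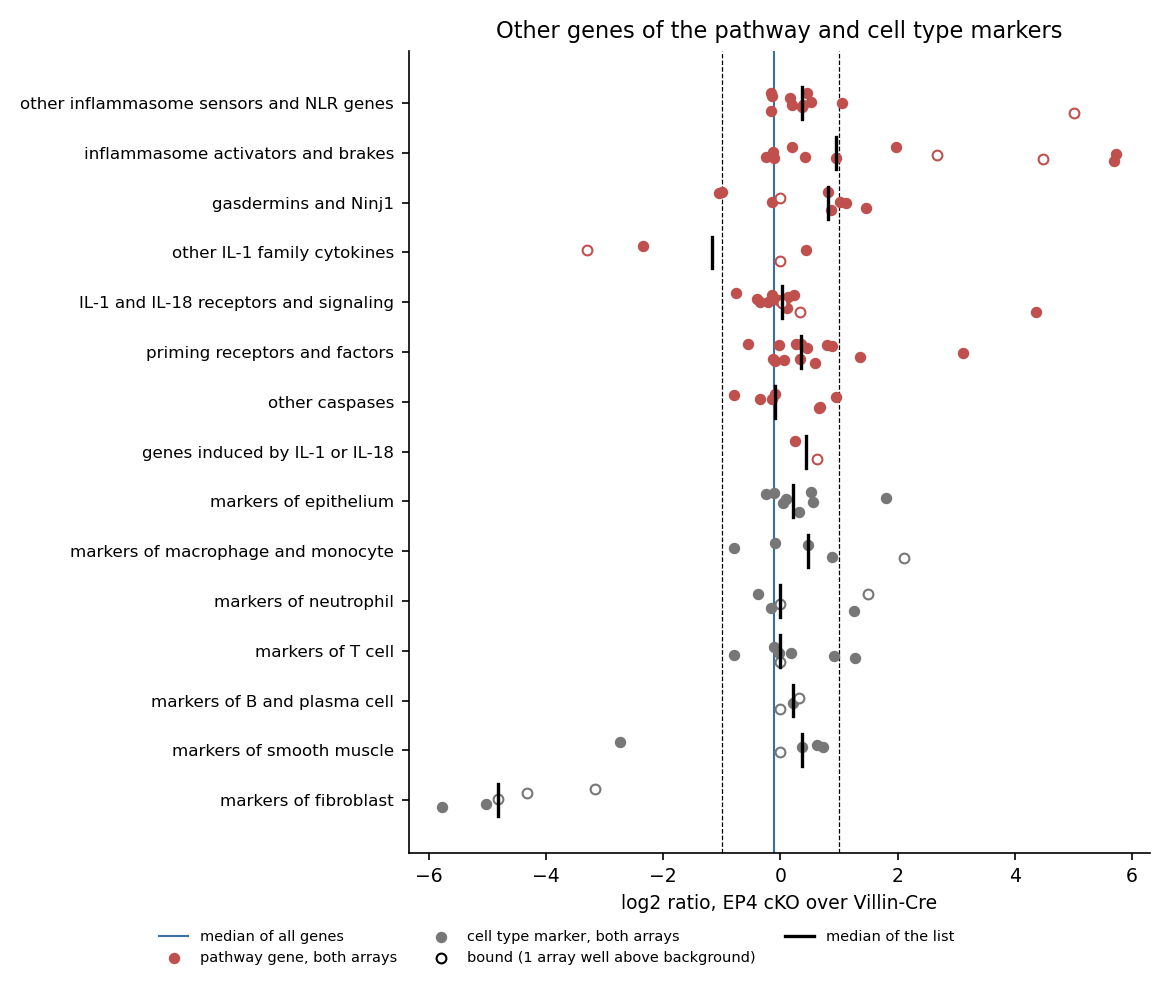
The log2 ratio of EP4 cKO over Villin-Cre (horizontal axis) of each gene with a value in the 8 pathway lists (red) and the 7 cell type marker lists (grey), with open points for bounds. Black ticks are list medians, the blue line is the median of all genes at -0.10 and the dashed lines mark 2-fold; the activators reach past 5 to the right and the fibroblast markers past -5 to the left.

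The calls of Casp4 and Il1b held under the alternatives that gave them a value: Casp4 was higher past 2-fold in 10 of 10 settings, with log2 ratios from 1.61 to 2.61, and Il1b in 9 of 9, from 1.12 to 2.77. Casp12 was higher past 2-fold in 8 of 9 and had 0.89 with normexp and quantile normalization. Il18 was lower past 2-fold in 9 of 10 and had -0.51 with the E1A control spots, a scaling that raised the median of all genes by 0.92, against 0.10 to 0.14 with the other scalings. Relative to that median, Il18 stood at -1.33 under this scaling and Casp4 at 1.79. Nlrp6, Nlrc4, Pycard and Casp1 were past 2-fold only with the E1A control spots.

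**Figure D4:**
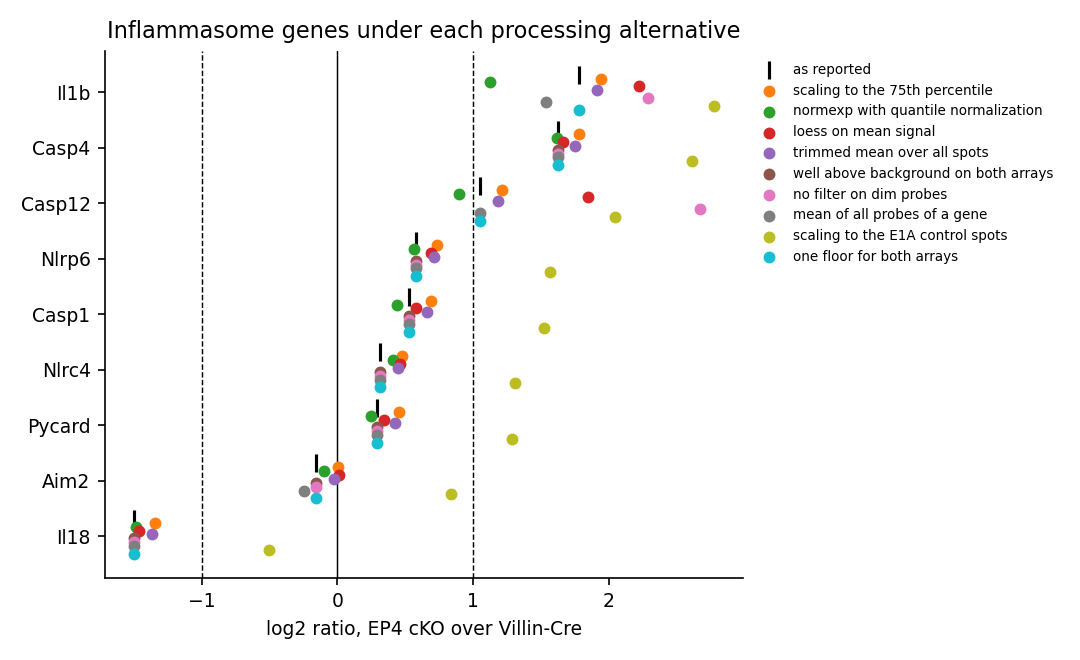
The log2 ratio of EP4 cKO over Villin-Cre (horizontal axis) of each member under each processing setting, with 1 point per alternative and a black tick for the value reported above. Casp4 and Il1b lie to the right of the upper 2-fold line in the settings that gave them a value, and Il18 lies to the left of the lower line except with the E1A control spots.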

How the data were processed

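RNA of whole colon was measured on 1-colour Agilent arrays (Cy3), 1 per genotype, with genotypes taken from the labels. The authors deposited scanner intensities processed by Feature Extraction (12.0.3.1 per the file headers, 11.5.1.1 per the submitters' processing notes), background-subtracted and detrended, with flags for outliers and for signal well above background. The deposited intensities do not include their scaling (trimmed mean of 2500), which was repeated here, leaving out 2% of the probes at each end. Outlier spots (147 and 126) and control spots were left out. Of the probes, 58.3% were named by RefSeq accession through a gene table of GRCm38.p6, which is not the assembly of the array's grid, so no probe coordinate is given. For a gene with several probes, the probe of highest mean log2 signal was taken. Promoter sequences are from RefSeq (GRCm38.p6). No spot was saturated. Over 163 probes that had 10 spots well above background, the log2 ratio varied among the spots of a probe with a median SD of 0.034. Precision is limited by the number of arrays.

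The members, the pathway and marker lists, and the rule for the genes named (members and Ptger4, pathway genes past 2-fold, up to 3 markers a list with the largest log2 ratios) were chosen with earlier results of these data known. Other genes were named after their values were seen. The alternatives were scaling to the 75th percentile, normexp (offset 50, on the median signal) with quantile normalization, loess (span 0.3), a trimmed mean over all spots, other filters, folds of 1.5 and 3, and the mean of a gene's probes. The NF-kappaB motif, a shared floor for both arrays and scaling to the E1A control spots were added after seeing the data. Il36rn, Ly6g and Trac had no matched probe. Some pathway genes are counted but not reported by name. The steps were tested on simulated data. R 4.3.3 (limma 3.58.1) served for normexp, and Python 3.11.15 (numpy 2.4.6, statsmodels 0.14.6, pandas 2.3.3; figures by matplotlib 3.10.9) for the rest.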

Additional observations from a re-analysis of the deposited data

How the results depend on the processing

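No paired analysis was possible because each genotype has 1 array, and for the same reason no array could be left out. Of the values of single members under the alternatives, 64 moved by less than the error of the ratio from the spots, 15 moved by more and 0 reversed a call; Casp12 and Il1b, which are bounds, were held to the largest such error among the other members. Normexp with quantile normalization left 391 of all genes lower past 2-fold, and loess gave 1117 higher and 692 lower; the cause was not tested. With probes well above background on both arrays, which leaves out the bounds, the median of the members was 0.32 and 1 member was higher. With no filter on dim probes, 1169 of all genes were higher and 7213 lower, and 13 pathway genes were lower. Dim probes then enter at their own signal. The lowest signal well above background was 125 on the control array and 57.8 on that of EP4 cKO. Why more genes were lower than higher in this setting was not tested. At 1.5-fold, 1444 of all genes were higher and 2726 lower, with 23 and 6 in the pathway lists; at 3-fold these were 324 and 533, with 8 pathway genes higher and 0 members lower. The mean of the probes gave Ptger4 a log2 ratio of 0.23 and turned Nlrp1a to -0.47. Of the values of pathway genes past 2-fold, 101 moved by less than the error from the spots, 38 by more and 1 (Nlrp1a) reversed. Scaling to the E1A control spots, added after seeing the data, gave a member median of 1.52, 7 members higher and 0 lower, 5235 of all genes higher and 346 lower, 44 pathway genes higher and a Ptger4 ratio of 0.85; why these spots differed was not tested. Where signal was near background no level is measured, which holds for Nlrp3 and for the Villin-Cre side of Il1b and Casp12.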
